A study of Mus musculus with 4 samples.

Results

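Cluster c4 is a group of cells that the authors separated from the other cells of purified mouse hematopoietic stem cell (HSC) preparations, and the label used here for it is mitotic stem and progenitor cells. Its members are all 20062 genes of the deposited table that sets c4 against every cell outside it, of 20062 genes in that table, while how many cells c4 holds is not stated in the sources used here. The other 6 clusters, c1 to c3 and c5 to c7, are used for context, from tables with the same 20062 genes. The series holds 4 samples of HSC from bone marrow, 2 labelled old and 2 labelled young, with no age in months or weeks. Old and young mice alike carried the genotype Gfp-Lc3, green fluorescent protein joined to the autophagosome protein LC3, and all cells were isolated at steady state with no other agent. The labels name no promoter for the transgene, and they do not say whether mice were pooled. Cells were profiled by droplet single-cell sequencing and by plate-based SmartSeq2, and the labels' protocol and the design text disagree on how many droplet samples were loaded per age. Neither sample nor age nor GFP-LC3 level is recorded in the tables, so c4 could not be compared between old and young mice, and every value below is a description of pooled cells without a replicate.

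A dividing cell copies its DNA in S phase, prepares for division in G2 and separates its chromosomes in mitosis (M). Cyclin B bound to the kinase Cdk1 starts mitosis, condensin compacts the chromosomes, kinetochores tie them to spindle microtubules, and the anaphase-promoting complex (APC/C) then marks cyclins and the cohesin guard securin for destruction so that sister chromatids can part. Most HSC of adult bone marrow rest outside the cycle, and those that enter it are few at any moment.

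Values are log2 fold changes of c4 over the cells outside it, as deposited. The authors limited these values to the range from -4 to 4, so that 4 stands for at least a 16-fold difference and no interval or standard error can be given. A list median of 4 is likewise a lower bound. A gene counts as called when its adjusted p-value in the authors' deposited table fell below 0.05. How the clusters were drawn is not stated, and where the same cells' expression drew them, a call against the other cells is no test, so calls are given here as counts only. In c4, 24.3% of all genes were called higher (4881 of 20062) and 10.6% lower (2124), with a median log2 fold change of 0.01. Among the 10027 genes whose mean expression reached the median, named expressed genes from here on, 44.2% (4429) had higher calls and 16.7% (1677) lower ones, with a median of 0.19. Of the 5014 genes with the highest mean expression, 55.1% were called higher (2765) and 16.4% lower (823), with a median of 0.23. A list of well expressed genes is therefore read against that larger share. The depth and the RNA content per cell of c4 are unknown here, and their part in this excess of higher calls was not tested.

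The 6 genes that mark the label were at the upper limit of 4 in c4. In the authors' deposited table of c4, Mki67, which coats mitotic chromosomes, Top2a, the topoisomerase that untangles them, and Cdk1 were all at 4, as were Birc5, a chromosomal passenger protein, Cenpf, a kinetochore protein, and Nusap1, a spindle protein. Outside c4 the same genes were low in the large clusters c1 and c2. Mki67 had the limit value of 4 in c4 in the authors' deposited tables, against -4 in c1 and -4 in c2. It stood at 0.08 in c3, 1.87 in c5, -2.61 in c6 and -2.18 in c7 in the authors' deposited tables. Only c5 had all 6 markers above 1 among the other clusters, between 1.52 for Cenpf and 2.21 for Birc5 in the authors' deposited tables. Top2a and Cdk1 were also above 1 in c3, at 1.27 and 1.15 in the authors' deposited tables. A fit in which the 7 clusters together account for all transcripts of 990 weakly expressed genes put 10.2% of the cells in c4, 40.8% in c1, 33.8% in c2, 12.0% in c3, 1.66% in c5, 0.996% in c6 and 0.348% in c7. With genes of log2 mean expression from -3 to 0 the c4 share came out at 9.35%.

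**Figure D1:**
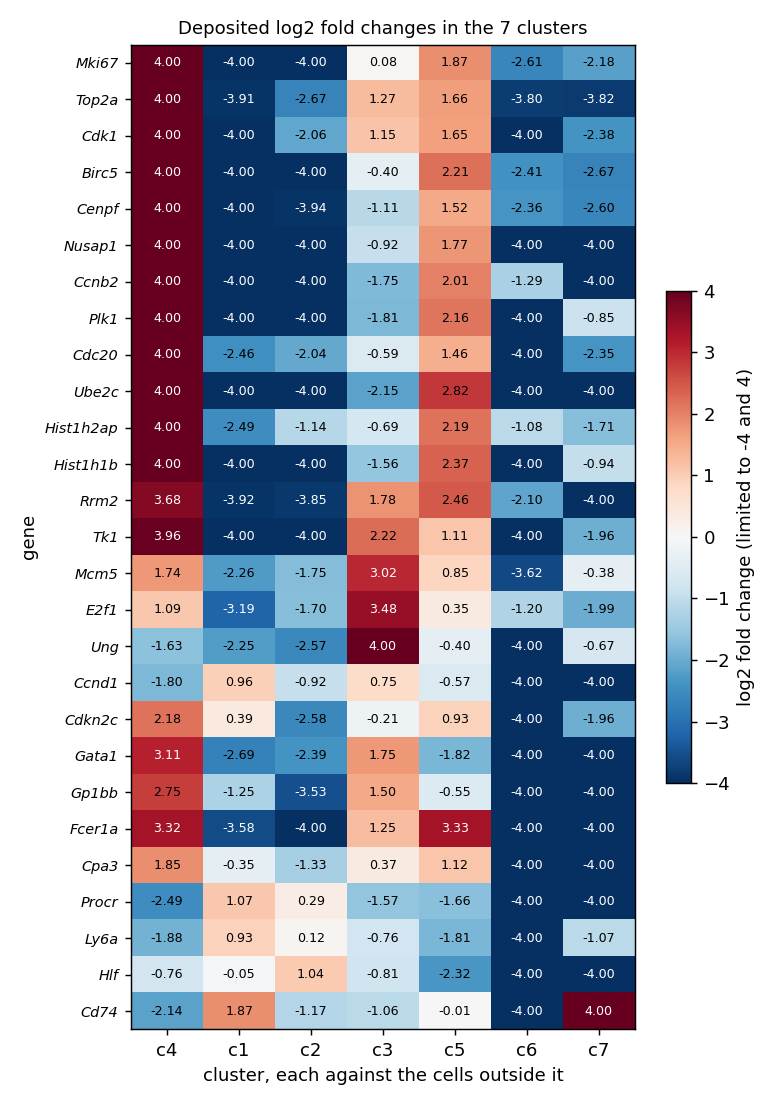
Heat map of the authors' log2 fold changes for 27 genes (rows) in the 7 clusters (columns, c4 first), each cluster against the cells outside it, on a colour scale limited to -4 and 4. The mitotic genes at the top are at 4 in c4 and mostly between -2 and -4 in c1 and c2, Mcm5, E2f1 and Ung are higher in the c3 column than in the c4 column, and Procr, Ly6a and Cd74 at the bottom are negative in c4.

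Of 314 unique genes on the lists for mitosis, chromosome structure, histones, DNA replication and recombination, 301 were called higher in c4, 2 lower and 11 not called. Their median was 2.50, beside 0.19 for expressed genes, and 92 of them stood at the upper limit. Of all expressed genes, 44.2% were called higher. The lists were chosen with earlier results of these data known, so the counts are a description and no test. The 2 lower genes were Cenpt at -0.61 and Ung at -1.63 in the authors' deposited table. Read from the other side, 86 called expressed genes with a proper gene name were at the upper limit, and 74 of them were on the cell cycle lists. The remaining 12 belonged to no list. They included Cdca3, a trigger of mitotic entry, Neil3, a DNA glycosylase, Mxd3, a repressor of the Myc network, Cdkn3, a phosphatase that acts on cyclin-dependent kinases, and Depdc1a, Iqgap3, Psrc1, Sapcd2, Shcbp1 and Arhgef39, all at 4 in the authors' deposited table and, apart from Cdca3, named after their values were seen. The other two were the histone genes Hist1h2bb and Hist1h3f, also named after their values were seen.

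**Figure D2:**
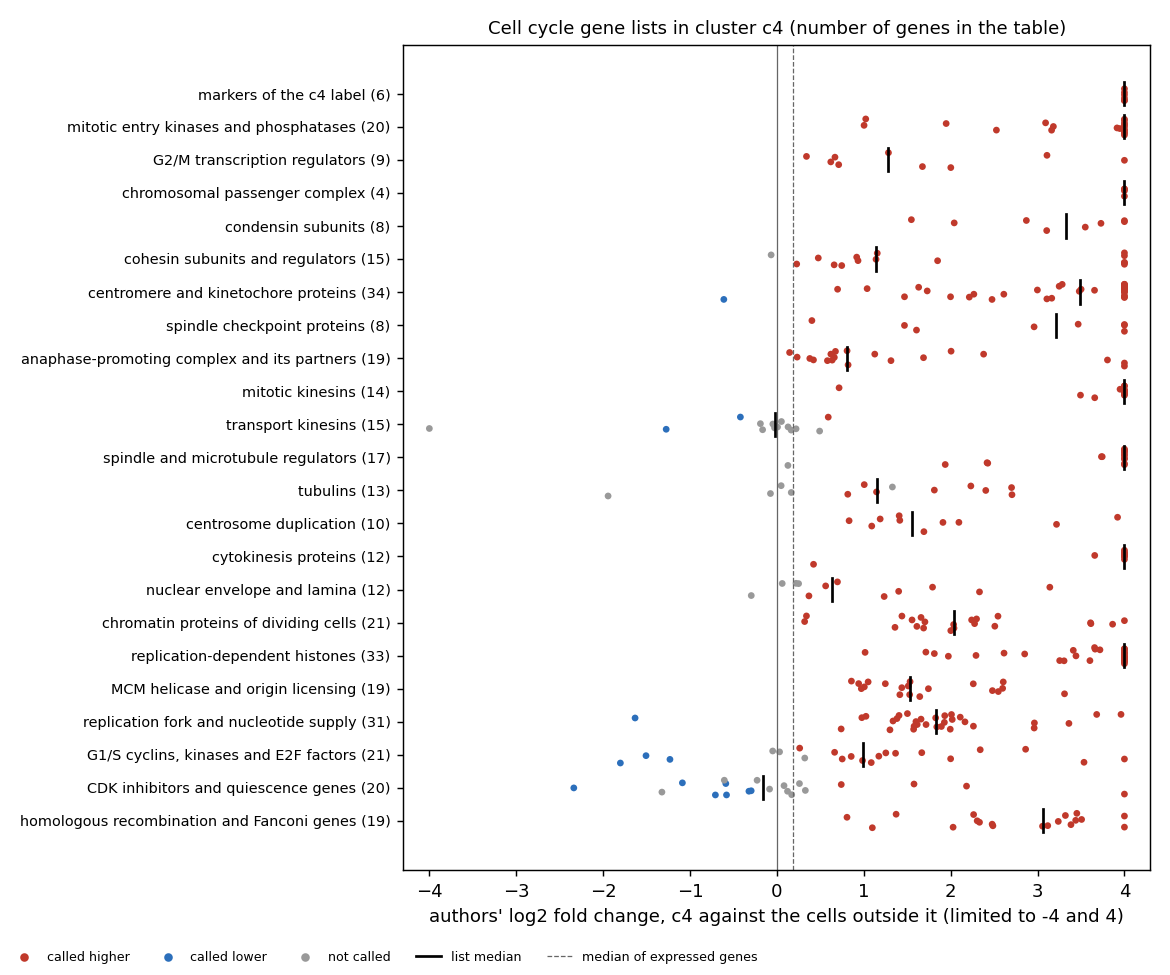
Each point is a gene of a cell cycle list (rows, with the number of genes in the table), placed by the authors' log2 fold change of c4 against the cells outside it, limited to -4 and 4; red is called higher, blue called lower and grey not called, the black bar is the list median and the dashed line the median of expressed genes (0.19). Lists for the spindle, mitotic motors and cytokinesis pile up at 4, while transport kinesins centre on -0.03 and CDK inhibitors and quiescence genes on -0.16.

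The kinases and phosphatases of mitotic entry were called higher without exception, 20 of 20, with a median at the limit of 4. Cdk1 and its cyclins Ccnb1, Ccnb2 and Ccna2 were at 4 in the authors' deposited table, together with the activating phosphatase Cdc25c, the Polo kinase Plk1, Aurora kinase A (Aurka) and its activator Tpx2, and the kinases Nek2, Melk and Pbk. The brakes on Cdk1 were higher too, by smaller amounts. Pkmyt1, which phosphorylates Cdk1 to hold it inactive, stood at 2.53 in the authors' deposited table and Wee1, which does the same in the nucleus, at 1.02. The 3 Cdc25 phosphatases, which act at different points of the cycle, had different values. Cdc25c was at 4, Cdc25b, which acts at the G2/M border, at 3.09, and Cdc25a, which also serves S phase entry, at 1.00 in the authors' deposited table. In c3 the same genes gave -1.46, -0.67 and 1.37 in the authors' deposited table. The c3 and c4 tables share most of their comparison cells, so the pair of values is set side by side and not tested.

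Regulators that switch on G2/M genes were higher for 9 of 9, with a median of 1.28. The spread among them was wide. Foxm1, the forkhead factor of G2/M genes, was at 4 in the authors' deposited table, and Mybl2 (B-Myb), which joins the MuvB complex in S phase, was at 3.11. The MuvB subunits Lin9 (2.00), Lin54 (1.68), Lin52 (0.62) and Lin37 (0.34) were lower in that order in the authors' deposited table. Among subunits of NF-Y, which binds CCAAT boxes, Nfyb was at 1.28, Nfyc at 0.71 and Nfya at 0.67 in the authors' deposited table.

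The promoters of the highest genes were searched for the elements these regulators are known to read, since members at the limit of the table cannot be ranked by value. The elements were the cell cycle genes homology region (CHR), TTTGAA or TTTAAA, which Lin54 binds; CCAAT, which NF-Y binds; and the E2F sites TTTCCCGC, TTTCGCGC, TTTGCCGC and TTTGGCGC. Both strands were read, so that TTTGAA also stands as TTCAAA and CCAAT as ATTGG, and matches that overlap an earlier match were not counted again. Sequences are RefSeq promoters on GRCm38.p6, from 250 bases before to 50 after each annotated start. The 250 bases before the start are printed 5' to 3' on the strand of the gene, with any matched element in capitals. Cdk1 (chr10:69352913-69353162, minus strand), Top2a (chr11:99024190-99024439, minus), Mki67 (chr7:135716380-135716629, minus), Ube2c (chr2:164769679-164769928, plus), Cdc20 (chr4:118437344-118437593, minus) and Kif11 (chr19:37376132-37376381, plus) are shown because they stand at 4 in c4 and hold CHR and CCAAT letters. Nusap1 (chr2:119618048-119618297, plus) is shown as a marker at 4 with no match, and Mcm5 (chr8:75109259-75109508, plus) as a replication gene. In the GENCODE M21 annotation the genes Cdk1, Ube2c and Cdc20 begin inside the printed window, and the other windows lie wholly upstream.
Cdk1: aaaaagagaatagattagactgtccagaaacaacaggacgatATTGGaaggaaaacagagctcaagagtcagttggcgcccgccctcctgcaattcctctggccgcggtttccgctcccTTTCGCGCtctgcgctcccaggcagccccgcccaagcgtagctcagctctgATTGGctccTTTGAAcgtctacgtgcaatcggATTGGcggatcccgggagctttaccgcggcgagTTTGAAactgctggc
Top2a: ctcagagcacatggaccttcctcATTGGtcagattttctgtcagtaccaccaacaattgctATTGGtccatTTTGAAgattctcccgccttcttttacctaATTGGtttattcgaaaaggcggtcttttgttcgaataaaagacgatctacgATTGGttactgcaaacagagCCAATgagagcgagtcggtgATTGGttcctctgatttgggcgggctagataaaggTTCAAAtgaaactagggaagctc
Mki67: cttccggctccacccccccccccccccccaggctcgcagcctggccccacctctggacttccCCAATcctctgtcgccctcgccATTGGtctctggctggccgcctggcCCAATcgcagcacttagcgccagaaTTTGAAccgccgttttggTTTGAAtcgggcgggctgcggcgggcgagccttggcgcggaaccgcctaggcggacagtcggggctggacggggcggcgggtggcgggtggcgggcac
Ube2c: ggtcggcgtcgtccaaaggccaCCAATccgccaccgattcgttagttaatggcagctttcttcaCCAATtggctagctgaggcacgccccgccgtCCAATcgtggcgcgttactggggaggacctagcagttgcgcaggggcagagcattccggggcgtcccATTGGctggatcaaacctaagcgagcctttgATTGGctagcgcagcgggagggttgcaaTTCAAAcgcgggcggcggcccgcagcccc
Cdc20: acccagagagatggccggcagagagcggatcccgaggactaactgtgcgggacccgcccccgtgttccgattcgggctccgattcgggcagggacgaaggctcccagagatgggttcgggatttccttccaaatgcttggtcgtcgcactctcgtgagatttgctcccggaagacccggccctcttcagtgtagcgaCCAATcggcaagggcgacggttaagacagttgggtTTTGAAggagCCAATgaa
Kif11: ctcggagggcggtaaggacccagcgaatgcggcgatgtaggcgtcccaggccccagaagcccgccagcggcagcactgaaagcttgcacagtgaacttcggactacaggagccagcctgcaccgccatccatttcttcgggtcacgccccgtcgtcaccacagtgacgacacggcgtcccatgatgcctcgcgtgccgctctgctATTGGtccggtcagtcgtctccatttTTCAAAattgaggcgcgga
Nusap1: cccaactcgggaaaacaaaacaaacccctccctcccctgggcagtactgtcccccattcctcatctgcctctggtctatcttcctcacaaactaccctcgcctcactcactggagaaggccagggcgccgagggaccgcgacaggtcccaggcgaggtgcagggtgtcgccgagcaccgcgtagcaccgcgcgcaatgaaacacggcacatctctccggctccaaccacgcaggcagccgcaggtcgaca
Mcm5: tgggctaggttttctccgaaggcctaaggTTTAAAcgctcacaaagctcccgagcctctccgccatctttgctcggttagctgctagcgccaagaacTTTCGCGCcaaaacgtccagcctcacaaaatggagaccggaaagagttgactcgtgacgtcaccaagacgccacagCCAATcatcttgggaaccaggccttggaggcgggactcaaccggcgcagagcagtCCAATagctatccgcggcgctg

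In these sequences the TTTGAA letters nearest to the start began 15 bases before it in Cdk1, 23 in Top2a, 29 in Ube2c, 18 in Cdc20 and 19 in Kif11, and 98 in Mki67. Cdk1 held an E2F site 131 bases before its start, and Mcm5 one 153 bases before its own. A match says only that the letters are present, and the absence of one in Nusap1 says nothing about the factor. Of the 100 called expressed genes highest in c4, 83 matched the promoter table, with 88 promoters between them. TTTGAA was present in 59 of these 88 (67.05%), against 12.17% of 10328 promoters of expressed genes and 17.89% of all 32851 promoters of the same length. CCAAT was present in 72.73% of them, against 37.78% in expressed genes and 37.41% in all. TTTAAA was present in 18.18%, against 8.89% and 13.16%, and an E2F site in 7.95%, against 4.19% and 2.26%. In the 100 called genes lowest in c4 (81 matched, 100 promoters), TTTGAA was present in 19.00%, TTTAAA in 20%, CCAAT in 31.00% and an E2F site in 0 of 100.

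Position and pairing of the elements were looked at after these shares were seen. TTTGAA within 50 bases of the start was present in 54.55% of promoters of the 100 highest genes, against 3.09% in expressed genes. At least 2 CCAAT boxes were present in 48.86%, against 14.36%, and TTTGAA together with CCAAT in 55.68%, against 4.94%. By role, TTTGAA was present in 76.92% of 13 promoters of cytokinesis genes, 71.43% of 14 promoters of mitotic kinesins, 64.71% of 17 promoters of spindle regulators and 46.15% of 13 promoters of entry kinases. It was present in 7.69% of 13 promoters of transport kinesins. In the 16 promoters of the MCM and origin list an E2F site was present in 50%, TTTGAA in 37.5% and CCAAT in 68.75%. In the 30 promoters of the fork and nucleotide list an E2F site was present in 23.33%, TTTGAA in 10.00% and CCAAT in 40%. These shares were not tested against each other. Histone promoters held CCAAT in 90.00% of 30, TTTGAA in 50%, and TTTGAA within 50 bases of the start in 6.67%.

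**Figure D3:**
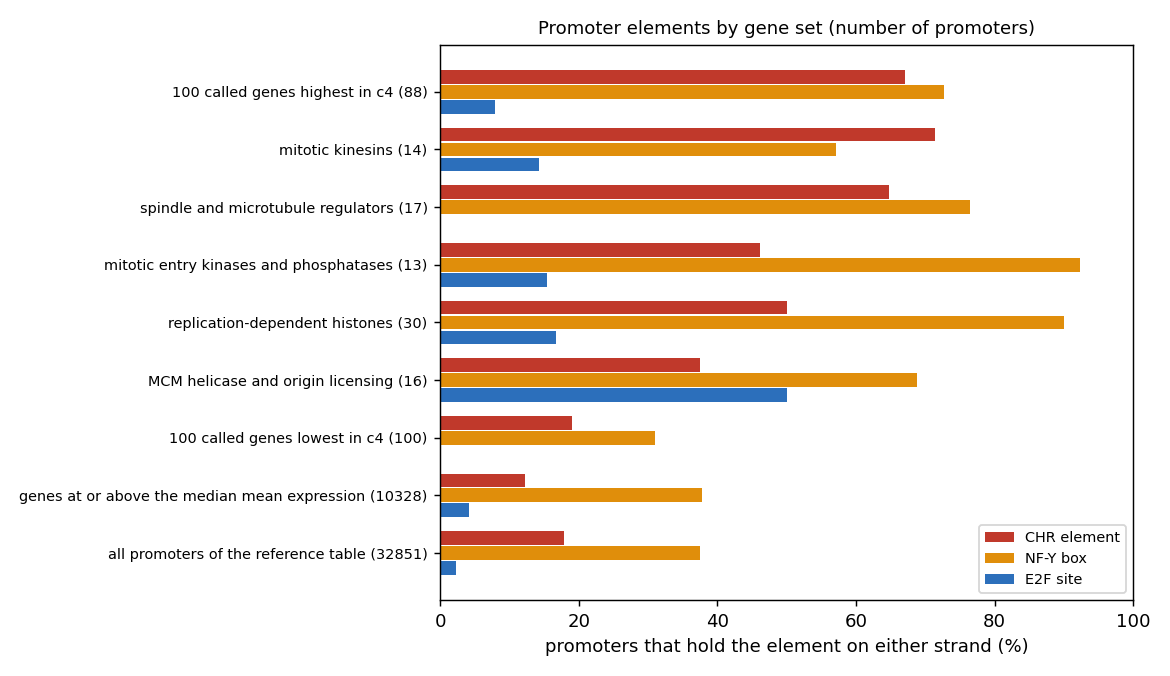
Bars give the percentage of promoters (horizontal axis, 0 to 100%) that hold TTTGAA (CHR element, red), CCAAT (NF-Y box, orange) or an E2F site (blue) on either strand, for gene sets of c4 and, at the bottom, for expressed genes and for the whole promoter table; the number of promoters is in parentheses and a missing bar is 0. The 100 highest genes reach 67.05% for TTTGAA and 72.73% for CCAAT, and only the MCM and origin list reaches 50% for E2F sites.

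All 8 condensin subunits were called higher (median 3.33), from Ncapg and Ncaph at 4 down to Ncaph2, a subunit of condensin II, at 1.55 in the authors' deposited table. Of 15 cohesin subunits and regulators 14 were called higher (median 1.14). The regulators that act on cohesin in dividing cells were at 4 in the authors' deposited table: the shugoshins Sgo1 and Sgo2a, the acetyltransferase Esco2, sororin (Cdca5) and separase (Espl1). The ring itself had smaller values, with Rad21 at 1.85, Smc3 at 1.16 and Smc1a at 0.75 in the authors' deposited table. The loader Nipbl was at 0.23 in the authors' deposited table. Pttg1, the securin that holds separase inactive, was the member not called, at -0.07 in the authors' deposited table. That value stood apart from the 4 of its partner separase.

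Of 34 centromere and kinetochore genes 33 were called higher and 1 lower (median 3.49), and 15 stood at the limit. These included all 4 subunits of the Ndc80 complex (Ndc80, Nuf2, Spc24, Spc25), which grips microtubules, the scaffold Knl1, the centromeric histone Cenpa and the motor Cenpe, each at 4 in the authors' deposited table. Hjurp, the chaperone that places Cenpa, was at 2.21 in the authors' deposited table. The lower gene was Cenpt, which links the centromere to Ndc80, at -0.61 in the authors' deposited table. The spindle checkpoint holds anaphase until every kinetochore is attached, and its 8 genes were all called higher (median 3.21). The kinases Bub1, Bub1b and Ttk were at 4 in the authors' deposited table, Mad2l1 at 3.47, Trip13, which resets Mad2, at 2.96, and Bub3 at 1.47.

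The list of the APC/C and its partners was called higher for 19 of 19 genes with a median of 0.81, and the partners set the upper end. The activator Cdc20 and the ubiquitin-loading enzyme Ube2c were at 4 in the authors' deposited table, the inhibitor Fbxo5 (Emi1) at 3.80 and the chain-extending enzyme Ube2s at 2.38. The G1 activator Fzr1 (Cdh1) was at 1.69 in the authors' deposited table. Core subunits ranged from Anapc15 at 2.00 to Cdc26 at 0.15 in the authors' deposited table. Cdc26 lay under the median of expressed genes, the only gene called higher on any cell cycle list to do so.

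All 14 mitotic kinesins were called higher with a median at the limit, and of 15 transport kinesins 1 was called higher and 2 lower, with a median of -0.03. Kif11, which pushes the poles apart, Kif2c, which strips microtubule ends, Kif20a, which works at the cleavage site, and Kif15 and Kifc1 were at 4 in the authors' deposited table. Kif2a, a microtubule depolymerase also used outside mitosis, was the lowest mitotic kinesin at 0.72 in the authors' deposited table. Among transport motors, Kif5b was at 0.59, Kif21b at -0.42 and Kif5a at -1.27 in the authors' deposited table. At an adjusted p below 0.01 neither of the 2 lower transport kinesins was called.

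Spindle regulators were called higher for 16 of 17, with a median at the limit. Prc1, which bundles the central spindle, Aspm, which works at the spindle poles, Hmmr, Spag5, Dlgap5 and Fam83d were at 4 in the authors' deposited table. Numa1, which anchors the poles and sits in the nucleus of resting cells, was at 0.13 and not called in the authors' deposited table. Stmn1, which destabilises microtubules, stood at 2.42 in the authors' deposited table. Of 13 tubulin genes 8 were called higher and 5 not called (median 1.15, or 2.02 over the expressed members). Tuba1b at 2.71, Tuba1c at 2.70, Tubb5 at 2.40 and Tubb4b at 2.23 led them in the authors' deposited table, and gamma tubulin (Tubg1), the nucleator, was at 1.81. The centrosome duplication genes were higher for 10 of 10 (median 1.55), led by Stil at 3.92 and the kinase Plk4 at 3.22 in the authors' deposited table.

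Genes for the final cut were at the limit. Of 12 cytokinesis genes all were called higher and 10 stood at 4 in the authors' deposited table, among them Ect2, which activates RhoA at the cell middle, Racgap1, anillin (Anln), citron kinase (Cit) and Cep55, which brings in the abscission machinery. Rhoa itself, a GTPase that all cells use, was at 0.42 in the authors' deposited table. All 4 chromosomal passenger genes (Aurkb, Incenp, Birc5, Cdca8) were at 4 in the authors' deposited table. The nuclear envelope list was called higher for 8 of 12 (median 0.63) and split by lamin type. The B-type lamins Lmnb1 and Lmnb2 were at 3.14 and 1.79 in the authors' deposited table, while Lmna, the gene of lamin A and C, was at 0.25 and not called. In c3, Lmna stood at 2.10 in the authors' deposited table.

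All 33 listed replication-dependent histone genes were called higher in c4, with a median at the limit and none under the 1.02 of Hist1h2bc in the authors' deposited table. These genes are transcribed mainly in S phase, while DNA is copied, and most of their transcripts carry no poly(A) tail. Many are near-identical copies, so that the counting could divide reads among them and each single value is uncertain. In c3, where 18.1% of all genes were called higher and 10.2% lower, 1 of the 33 was called higher and 26 lower, with a median of -1.14. In c5, where 7.17% of all genes were called higher, 19 of the 33 were. Hist1h2ap stood at 4 in c4, against -0.69 in c3, and Hist1h3b at 4 in c4, against -2.42 in c3, in the authors' deposited tables.

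The chromatin proteins of dividing cells were called higher for 21 of 21 (median 2.03). Hmgb2 at 3.86, the histone variant H2afx at 3.61 and the chaperone Asf1b at 3.61 led after Top2a in the authors' deposited table. Some proteins that act behind the replication fork had smaller values in c4 than in c3: Uhrf1, which reads hemimethylated DNA, was at 2.30 in c4, against 3.20 in c3, in the authors' deposited tables. Hells, a remodeller, was at 1.66 in c4, against 3.51 in c3, and the chaperone Nasp at 1.70, against 2.45, in the authors' deposited tables. H2afx was at 3.61 in c4, against -0.02 in c3, in the authors' deposited tables.

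DNA replication genes were also high in c4, so the mitotic label covers only part of the cell cycle genes that were high. All 19 genes of the MCM helicase and origin list were called higher in c4 (median 1.53), none at the limit, and in c3 18 of 19 were called higher (median 2.45). Mcm2 was at 0.94 in c4, against 2.68 in c3, Mcm5 at 1.74, against 3.02, and the licensing factor Cdt1 at 1.53, against 3.16, in the authors' deposited tables. Other members had the larger value in c4. Mcm10, which acts at firing origins, was at 3.31 in c4, against 2.53 in c3, and Dbf4, the activator of the Cdc7 kinase, at 2.60, against 0.09, in the authors' deposited tables. Gmnn, which blocks relicensing in S and G2, was at 2.61 in c4, against 2.50 in c3, in the authors' deposited tables.

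On the fork and nucleotide list, 30 of 31 genes were called higher in c4 (median 1.83), against 31 of 31 in c3 (median 1.94). Enzymes that make deoxynucleotides were near the top in c4, with Tk1 at 3.96, Rrm2 at 3.68, Rrm1 at 2.96 and Tyms at 2.96 in the authors' deposited table. In c3 they stood at 2.22, 1.78, 1.81 and 2.20 in the authors' deposited table. Pcna, the sliding clamp, was at 1.60 in c4, against 2.21 in c3, in the authors' deposited tables. Ung (chr5:114130386-114139323, plus strand, GRCm38), the uracil-DNA glycosylase that removes misplaced uracil, was the exception. It was at -1.63 in c4 and called lower, against 4 in c3, in the authors' deposited tables. The 19 homologous recombination and Fanconi genes were all called higher in c4 (median 3.06, against 1.91 in c3). Fancd2 and the PCNA partner Pclaf were at 4 and Brca1 at 3.45 in the authors' deposited table.

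**Figure D4:**
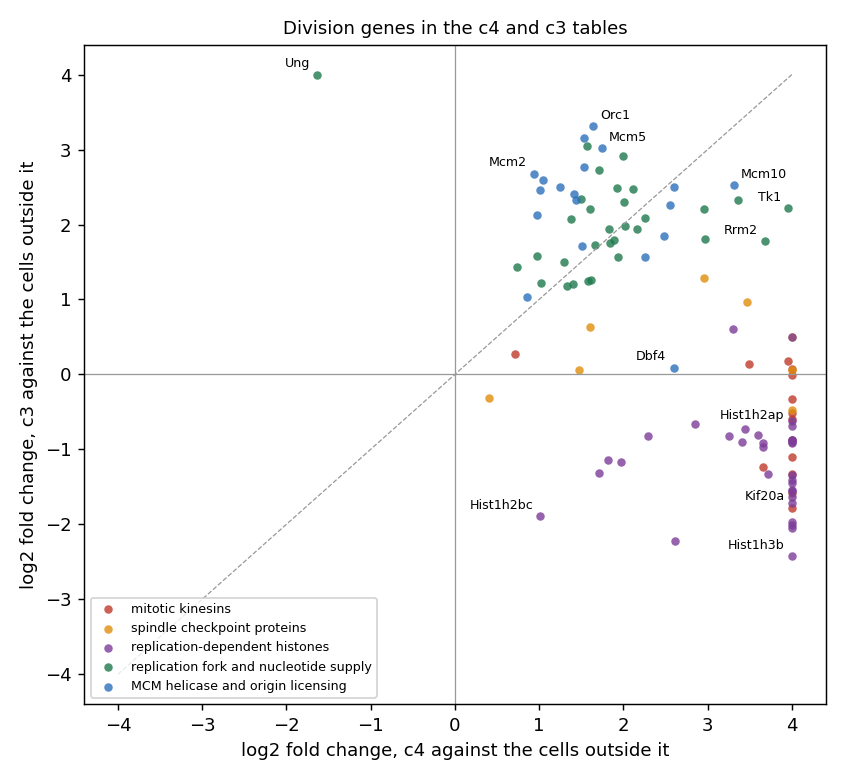
Each point is a gene, placed by the authors' log2 fold change of c4 (horizontal) and of c3 (vertical), each against the cells outside that cluster and limited to -4 and 4; colours give the list and the dashed line marks equal values. Most mitotic kinesins and histones lie towards the right edge, down to -2.42 in c3, MCM and fork genes other than Ung lie above 0 in both clusters, and Ung stands alone at -1.63 in c4 and 4 in c3.

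The genes of the G1 to S transition were mixed. Of 21, 15 were called higher and 3 lower in c4 (median 0.99). The repressive factors E2f8 and E2f7 were at 4 and 3.53 in the authors' deposited table, and E2f2 was at 2.86. The activator E2f1 was at 1.09 in c4, against 3.48 in c3, Ccne1 at 1.67, against 2.97, and Ccne2 at 2.34, against 3.12, in the authors' deposited tables. The 3 lower genes were Ccnd1 (chr7:144929931-144939925, minus strand, GRCm38) at -1.80, Ccnd2 at -1.51 and E2f5 at -1.23 in the authors' deposited table. Ccnd1 and Ccnd2 encode D-type cyclins, which carry growth signals to Cdk4 and Cdk6, and in c3 they stood at 0.75 and 0.05 in the authors' deposited table. Ccnd3 was at 0.03 and not called in c4 in the authors' deposited table.

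Genes that hold cells out of the cycle were not uniformly low. Of 20 CDK inhibitor and quiescence genes 4 were called higher, 7 lower and 9 not called, with a median of -0.16 and a mean of 0.07. The 4 higher ones were all inhibitors of cyclin-dependent kinases. Cdkn2a, with a log2 mean expression of only -9.75, was at 4, Cdkn2c (p18; chr4:109660876-109667189, minus strand, GRCm38) at 2.18, Cdkn2d (p19) at 1.58 and Cdkn1a (p21) at 0.74 in the authors' deposited table. Cdkn2c was at -0.21 in c3 in the authors' deposited table. Cdkn1c (p57), an inhibitor known from resting HSC, was at -0.30 and Cdkn1b (p27) at 0.12 and not called in the authors' deposited table. The lower genes were led by the repressor Gfi1 at -2.34 and Txnip, which binds thioredoxin, at -1.09 in the authors' deposited table.

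Stem cell identity genes were measured in c4 at levels that differed from gene to gene. Of 20, 4 were called higher, 9 lower and 7 not called, with a median of -0.23. The deposited means and the estimated cell share give a level per gene, in units per 10000 of the normalised total. Kit, the stem cell factor receptor, had an estimated level of 2.55 in c4, against 2.62 outside it, and was not called. Gata2 had 1.54, against 1.52, and Meis1 2.45, against 2.78. Procr (EPCR; chr2:155751117-155755471, plus strand, GRCm38), a surface marker of HSC, had 0.19 in c4, against 1.07 outside it, and stood at -2.49 in the authors' deposited table. Ly6a (Sca-1) had an estimated level of 0.456, against 1.68, and stood at -1.88 in the authors' deposited table. Hlf had 2.80, against 4.76, and Mllt3, a regulator of HSC maintenance, stood at -1.33 in the authors' deposited table. Slamf1 (CD150) was at -0.24 and not called in the authors' deposited table. Cd34 had an estimated level of 1.38 in c4, against 0.846 outside it, and Fli1 1.50, against 1.31. Kit, Gata2, Meis1, Cd34 and Fli1 were named here after their values were seen.

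Genes of single lineages were called unevenly. Of 16 erythroid genes 6 were called higher (4 at an adjusted p below 0.01) and none lower (median -0.03, and 0.08 over expressed members). In c3 13 of 16 were called higher (median 1.95). Gata1 (chrX:7959260-7978071, minus strand, GRCm38), the erythroid and megakaryocyte factor, was at 3.11 in c4, against 1.75 in c3, in the authors' deposited tables, from an estimated level of 0.166 in c4, against 0.019 outside it. Klf1 was at 1.37 in c4, against 2.59 in c3, and Epor at 1.12, against 1.37, in the authors' deposited tables. At an adjusted p below 0.01 Klf1 was not called in c4. Car1, a carbonic anhydrase of erythroid cells, was at -1.02 and not called in c4, against 3.67 in c3, in the authors' deposited tables, and was named after its values were seen. Of 11 megakaryocyte genes 7 were called higher and 1 lower (median 0.59), against 7 and 1 in c3 (median 0.53). Gp1bb, a platelet glycoprotein, was at 2.75, Itga2b (CD41) at 1.24 and Gp1ba at 1.20 in the authors' deposited table. Gata1, Klf1, Gp1bb and Gp1ba lay under the median mean expression.

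Of 16 granulocyte and monocyte genes, 11 were called lower and none higher (median -1.33), against 11 and none in c3 (median -1.38). Cebpe, a granulocyte factor, was at -4, Ly6c2 at -3.61, Ctsg at -3.49 and the neutrophil protease Elane at -2.29 in the authors' deposited table. At an adjusted p below 0.01, 9 of the list were called lower in c4, and Ctsg and Elane were not called. None of 14 lymphoid and B cell genes was called in either direction by the authors' test. Of the 5 mast cell and basophil genes measured, 2 were called higher, and all 5 lay under the median mean expression. Fcer1a, a chain of the IgE receptor, was at 3.32 in c4, against 3.33 in c5, and the protease Cpa3 at 1.85, against 1.12, in the authors' deposited tables. T and NK cell genes gave 1 higher, Nkg7 at 1.60, and 1 lower, Klrb1c at -2.20, of 10 in the authors' deposited table, with a median of 0.25. Of 10 macrophage genes 1 was called lower, Spic at -1.20 in the authors' deposited table, and none at an adjusted p below 0.01. Fcer1a was likewise not called at that threshold. Of 10 endothelial and stromal genes 1 was higher, Lepr at 1.76, and 2 lower, Kdr at -0.99 and Emcn at -0.43, in the authors' deposited table. Doublets and free RNA cannot be read from these tables, and their part in these values was not tested.

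Among the 20 expressed genes with the lowest values, most were high in c6. Of these, 17 had a value above 1 in c6 and 3 did not. The 17 are led by products of myeloid cells, with Ly6g, Cd177, Cybb (a subunit of the phagocyte oxidase), Chil1, Lrg1, Fcnb, Mcemp1, Trem3, Slfn1, Ccl6 and Cebpe at -4 in the authors' deposited table. The next were Mmp8 at -3.98, Ifitm6 at -3.97, Wfdc21 at -3.89, Clec4a2 at -3.86, Pirb at -3.69 and Mmp9 at -3.67 in the authors' deposited table. Low values of such genes were not particular to c4. Ly6g, Cd177, Cybb, Lrg1 and Mcemp1 were also at -4 in c1, c2 and c3, and at 4 in c5 and c6, in the authors' deposited tables. The other 3 genes were Slfn5, Cldn5 and Tmem150a, all at -4 in c4 in the authors' deposited table. In c1 they stood at 0.68, 4 and 2.11 in the authors' deposited table. Of 10 multipotent progenitor genes, 2 were called higher (1 at an adjusted p below 0.01) and 3 lower (2 at that threshold), with a median of -0.12. Cd34 was at 0.70 and the chromatin organiser Satb1 at -1.12 in the authors' deposited table. Ctsg, which is also on the granulocyte and monocyte list, was at -3.49 in c4, against 4 in c5, in the authors' deposited tables. It was not called at an adjusted p below 0.01.

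**Figure D5:**
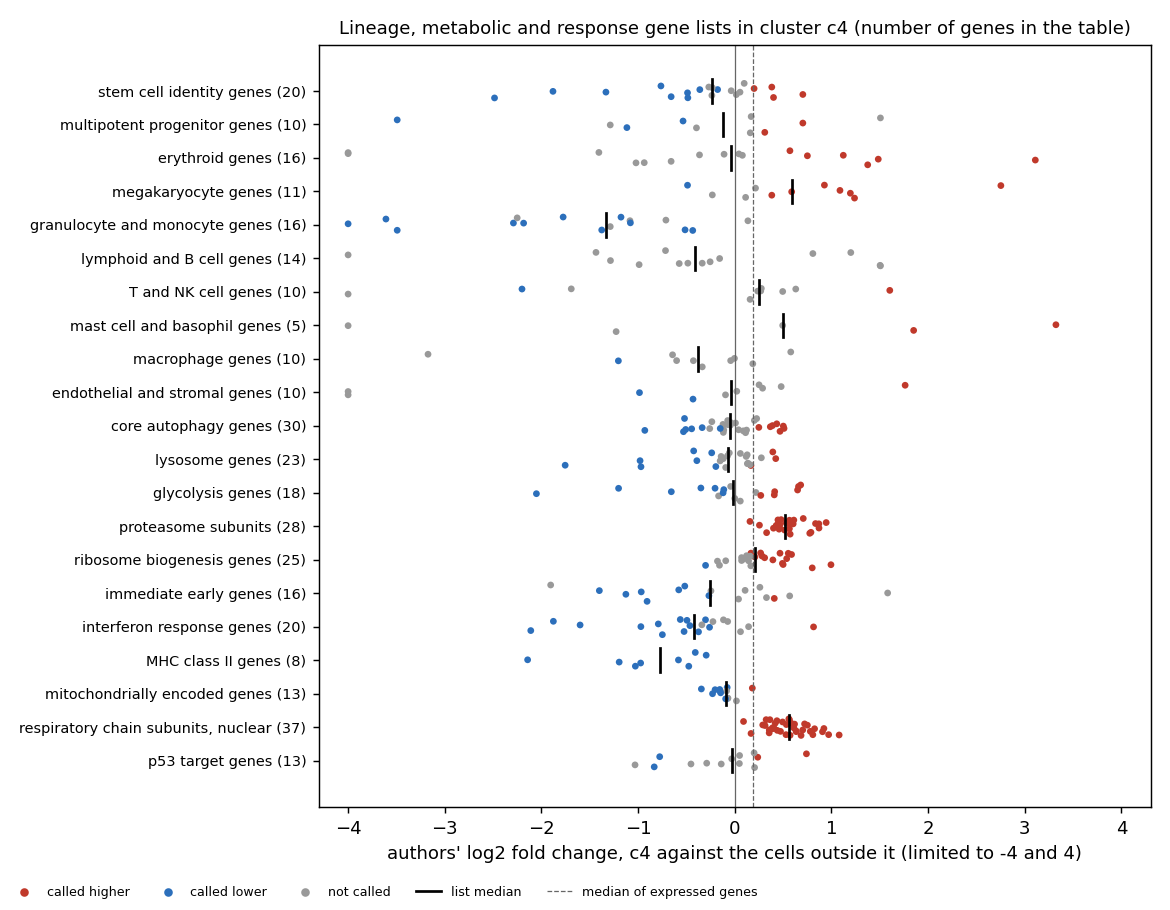
Each point is a gene of a lineage, metabolic or response list (rows, with the number of genes in the table), placed by the authors' log2 fold change of c4 against the cells outside it, limited to -4 and 4; colours are red for called higher, blue for called lower and grey for not called, with the list median in black and the median of expressed genes (0.19) dashed. Proteasome and nuclear respiratory chain genes form tight groups above 0, and MHC class II, interferon and granulocyte genes lie mostly below it.

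All 28 proteasome subunits were called higher (median 0.52), from Psmc3 at 0.95, Psmc1 at 0.87, Psmb7 at 0.87 and Psmd14 at 0.83 down to Psmb1 at 0.16 in the authors' deposited table, and 1 of the 28, Psmb1, lay under the median of expressed genes. All 37 nuclear genes of the respiratory chain were called higher (median 0.56), with Cycs (cytochrome c) at 1.08, Cox7a2 at 0.97, Cox5a at 0.92 and Cox6a1 at 0.91 in the authors' deposited table, and 2 of the 37 lay under that median. For comparison, 55.1% of the most expressed genes were called higher in c4, with a median of 0.23. In c3, 27 of the 28 proteasome subunits were called higher (median 0.40). There, 34 of the 37 respiratory chain genes were also called higher (median 0.345), so higher calls in these lists were not particular to c4. The 13 genes of the mitochondrial genome gave 1 higher and 9 lower in c4 (median -0.09). Among them, mt-Co1 was at -0.35, mt-Nd5 at -0.23, mt-Co3 at -0.20 and mt-Nd1 at 0.18 in the authors' deposited table. Of 25 ribosome biogenesis genes, 14 were called higher and 1 lower in c4 (median 0.21), a share near the 55.1% of the most expressed genes, against 24 higher in c3 (median 0.67). Odc1 led them at 0.99, Nop56 at 0.80, Nop58 at 0.59 and Bop1 at 0.55 in the authors' deposited table. Myc, the 1 lower gene, was at -0.30 in c4, against 0.66 in c3, in the authors' deposited tables.

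Of 18 glycolysis genes, 6 were called higher and 7 lower (median -0.02). Aldoa, an aldolase, was at -2.05 and the hexokinase Hk2 at -1.20, while Pgk1 was at 0.68 and Tpi1 at 0.66 in the authors' deposited table. In c3 Aldoa stood at -0.25 in the authors' deposited table.

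Autophagy was the subject of the study, and its core genes were called in both directions, 7 of 30 higher and 7 lower, with a median of -0.05. All 30 reached the median mean expression. Of all expressed genes, 44.2% were called higher and 16.7% lower, with a median of 0.19. In c3 none of the 30 was called higher and 10 were called lower (median -0.17). Of the LC3 family, Gabarapl1 was at -0.93, Map1lc3a at -0.53, Map1lc3b at -0.51 and Gabarap at -0.15, all called lower, in the authors' deposited table. Gabarapl2 was at -0.05 and not called in the authors' deposited table. In c3 Gabarapl1 stood at -0.60, Map1lc3b at -0.52, Gabarap at -0.44 and Gabarapl2 at -0.26, all called lower, in the authors' deposited table. Map1lc3a was at -0.15 and not called in c3 in the authors' deposited table. The cargo receptor Sqstm1 (p62) was at -0.52 and called lower in the authors' deposited table. Gabarap and Gabarapl2 were named after their values were seen. Becn1, a subunit of the kinase complex that starts autophagosomes, was at 0.51 in the authors' deposited table. The lysosome list gave 3 higher and 7 lower of 23 (median -0.08), with the protease Ctsl at -1.75, Cd63 at -0.98, Gaa at -0.97 and Ctsd at -0.43 in the authors' deposited table. These are transcript values, and the GFP-LC3 signal of c4 cells is not in the tables.

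All 8 MHC class II genes were called lower (median -0.78), with the invariant chain Cd74 at -2.14, the transactivator Ciita at -1.20, H2-Eb1 at -1.03 and H2-Aa at -0.97 in the authors' deposited table. Of 20 interferon response genes, 13 were called lower and 1 higher (median -0.42), against 12 and 1 in c3 (median -0.48). In c4, 8 were called lower at an adjusted p below 0.01. Mx1 was at -2.11, Ifit3 at -1.88, Ifit1 at -1.60 and Iigp1 at -0.97 in the authors' deposited table. Mx1 and Ifit3, both under the median mean expression, were not among those 8. Stimulation and handling induce the immediate early genes. Of 16, 7 were called lower and 1 higher (median -0.26), against 9 and none in c3 (median -0.40). Junb was at -1.40, Ier2 at -1.13, Jund at -0.97 and Zfp36 at -0.91 in the authors' deposited table. Of 13 p53 targets 2 were called higher, Cdkn1a at 0.74 and Mdm2 at 0.24, and 2 lower, Bbc3 at -0.83 and Trp53inp1 at -0.78, in the authors' deposited table. At an adjusted p below 0.01, Mdm2 was no longer called. Xist, which silences an X chromosome in female cells, was at 0.12 and not called in c4 in the authors' deposited table. Malat1, a nuclear RNA, was at -0.67 in the authors' deposited table, from an estimated level of 132 units per 10000 in c4, against 210 outside it.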

How the data were processed

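HSC from 2 old and 2 young Gfp-Lc3 samples were profiled, and 8 tables of comparisons between clusters c1 to c7 were used. Mean expression and fold changes are log2 values as deposited by the authors, and the authors' deposited p-values are accompanied by Benjamini-Hochberg adjusted p-values. Recomputing the adjustment over 20062 genes gave a largest difference of 2.05e-15. The log2 base of the mean was read from the values, since 2 raised to it summed to 10000; 8 genes had no number there. Scanpy, GSNAP, HTSeq and GRCm38.p4 are named in the submitters' processing notes, with no role. The test, its unit, the clustering, cell filters, doublet treatment, cell numbers and depth are not stated in the sources used here. Were cells the unit, p-values would describe cells, which are not replicates. That each cluster was set against the cells outside it was taken from the table names. Shares fitted under that reading summed to 99.9%. The fit itself asks the clusters to account for all transcripts of each gene, so this sum is no check of the reading.

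Genes with an adjusted p below 0.05 were counted by direction, over all genes and over 44 lists (712 genes in the table, 5 listed genes not in it). The members and lists were chosen with earlier results of these data known. Genes named were the 20 highest and 20 lowest among called genes that reached the median mean expression (log2 -4.29), leaving out predicted genes, with ties by smaller p and then higher mean; every member of a cell cycle list; up to 4 members of each other list with the largest called change; and the markers, Map1lc3b, Sqstm1, Procr, Slamf1, Xist and Malat1. A few genes that this rule covers are left out here. Cell shares were the weights fitted over genes of log2 mean expression from -5 to -3. The fit recovered known shares from simulated levels that followed the same model, without noise or limited values. That shows the calculation works and does not measure the accuracy of the shares. Shares of a marker's transcripts are not reported, because limited fold changes made them sum to between 82.8% and 108% over clusters. Promoters came from RefSeq (GRCm38.p6) and gene positions from GENCODE M21. A protein motif that was planned, the letters KEN, was not examined. The alternatives comprised an adjusted p below 0.01, an absolute log2 fold change of at least 1, expressed genes only, the adjustment redone over these, list means, centring and other bands for the shares. Python 3.11.15, pandas 2.3.3, NumPy 2.4.6, SciPy 1.17.1 and Matplotlib 3.10.9 were used.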

Additional observations from a re-analysis of the deposited data

How the results depend on the processing

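No paired analysis was possible because the tables hold comparisons of clusters and no sample, so the shared replicate numbers of old and young could not enter a fit and no sample could be left out in turn. Requiring an absolute log2 fold change of at least 1 left 1798 of 7005 called genes, 1039 of 4881 higher and 759 of 2124 lower, and 1 of the 2 lower division genes (Ung). Counts were within 1.5 times of 7005, 4881 and 2124 under an adjusted p below 0.01 (5907 in all, 4291 higher, 1616 lower), among expressed genes only (6106, 4429, 1677) and after adjustment over expressed genes (6455, 4650, 1805). The estimated share of c4 was 9.35% from genes of log2 mean expression between -3 and 0, and 10.4% from genes between -7 and -5, against 10.2%. By mean in place of median, CDK inhibitors and quiescence genes stood at 0.065 and T and NK cell genes at -0.42, and by expressed members alone erythroid genes stood at 0.078, each with the opposite sign to its median over all members; the cause was not tested. Centring on the median of expressed genes, a shift of 0.19, turned the sign of no list median, and 107 of the 4881 genes called higher had a value under it. In alternatives chosen after seeing the data, TTTGAA was present in 54.55% of promoters of the 100 highest genes within 50 bases of the start, in 70.73% for the 50 highest genes, and in 67.47% of genes by any promoter, against 67.05%. Values limited at 4 and -4 cannot be ranked. With 86 named expressed genes tied at 4, the 50 highest genes do not have larger values than the other tied genes. The unknown depth sets no bound on genes not called.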

Other observations

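Genes outside the lists, chosen after their values were seen, are given here as single values. They were picked one by one and stand for no group. The GTPase Ran, which works in nuclear transport, was at 1.50, its exchange factor Rcc1 at 1.99 and its activating protein Rangap1 at 2.30 in the authors' deposited table. The chromatin proteins Dek at 1.85, Nucks1 at 2.18, H1fx at 3.09, Cbx3 at 1.20 and Ptma at 1.03 were called higher as well in the authors' deposited table. Mthfd2, a mitochondrial enzyme of folate metabolism, was at 2.32 in the authors' deposited table. Lockd, a noncoding RNA beside Cdkn1b, was at 3.89 in the authors' deposited table, while Cdkn1b itself was at 0.12 and not called. Ptn, a secreted growth factor, was at 3.97 in c4, against 1.13 in c3 and -2.24 in c5, in the authors' deposited tables. Fgf3, another secreted factor, was at 2.43 in the authors' deposited table.

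Among genes called lower, Meg3, an imprinted noncoding RNA, was at -2.49 and Aldoc, another aldolase, at -2.04 in the authors' deposited table. Ltb, a lymphotoxin, was at -1.98, Lst1 at -1.86 and Ifitm1 at -1.83 in the authors' deposited table. Ftl1, the ferritin light chain, was at -0.80, Pim1, a survival kinase, at -0.89, and Cited2, a regulator of HSC quiescence, at -0.73 in the authors' deposited table. Cytoplasmic ribosomal protein genes, picked by name among expressed genes, were called lower for 65 of 75 and higher for 4, with a median of -0.25. Of all expressed genes, 16.7% were called lower and 44.2% higher, with a median of 0.19. Ribosome biogenesis genes had a median of 0.21, near that of expressed genes.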
